A study of Homo sapiens with 2 samples.

Results

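The regions described here are 1831 peaks of RUNX2 that lay between genes, within reach of a protein-coding gene, and were shared with MTA1. They came from CUT&Tag libraries of untreated MDA-MB-231, a human cell line of triple-negative breast cancer. With this method an antibody brings a transposase to chromatin, and the DNA tagged around the bound protein is sequenced. There was 1 library with an antibody to RUNX2 and 1 with an antibody to MTA1, and no control library was analysed here. The supplier of each antibody differs between the labels and the study's methods, and the labels also describe adaptor ligation to precipitated DNA, so the antibody product and the preparation behind each list are uncertain.

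A member was chosen by measured values and by position. It was a RUNX2 peak with a score of 10 or more that shared at least 1 bp with an MTA1 peak. Its centre lay outside every gene annotated by RefSeq and 10 to 100 kb from the nearest end of a protein-coding gene, on chromosomes 1 to 22 or X. The score is the authors' own value for a peak, on a scale that was not stated, and the minimum lay at the 68.6th percentile of the RUNX2 list. RUNX2 peaks that reached it are called strong. Members made up 2.97% of the 61694 RUNX2 peaks on these chromosomes, 9.45% of the 19379 strong ones and 11.7% of the 15609 strong peaks that overlapped an MTA1 peak. Of the other strong shared peaks, 5508 lay within 3 kb of a protein-coding gene end, 6864 inside a gene, 694 between genes at 3 to 10 kb and 712 between genes beyond 100 kb. As each antibody has 1 library, no value has a replicate, no p-value was computed, and every 95% interval covers the counting of peaks or genes only. The number of reads behind the peaks is unknown. The labels name the build hg19, whereas the listed positions lay on gene ends of GRCh38: 17.5% of RUNX2 and 24.6% of MTA1 peaks were within 1 kb of one, against 4.27% and 4.57% after a move of 100 kb. Positions were therefore read as GRCh38.

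Stretches between genes hold enhancers, short regions where transcription factors gather and from which a gene can be regulated at a distance. RUNX2 is a Runt-domain transcription factor best known as the master regulator of bone formation, and it is also active in breast cancers that spread to bone. MTA1 is a subunit of NuRD, a complex that remodels nucleosomes and removes acetyl groups from histones, and it is brought to DNA by transcription factors. The nearest gene names a place on the chromosome and need not be the gene that a region acts on.

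Some members sat on the start of a non-coding gene, and there the DNA under the peak could be read from the RefSeq promoter windows of GRCh38.p14, which run from 250 bases before to 50 bases after a gene start. Windows of 58 members were found, all of long non-coding RNA (lncRNA) genes. The letters of the RUNX core, TGTGGT or ACCACA on the other strand, and of the site of AP-1, the dimer of FOS and JUN proteins, TGACTCA or TGAGTCA, were searched. Of the 58 members, 14 (24.1%, 13.9 to 37.2%) had a window with the RUNX letters, beside 13.1% of all 34781 windows and 16.2% of the 12802 windows of non-coding genes. The AP-1 letters stood in the windows of 16 (27.6%, 16.7 to 40.9%), beside 4.93% and 6.51%. Within the bases that the peaks covered, 12 members held the RUNX letters, 16 the AP-1 letters, 4 of them both, and 34 held neither. A match is a description of these letters, not of a bound site. The other members lay off these windows and their sequence was not examined here.

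The covered bases are shown for the 3 members with the highest RUNX2 scores among those with the RUNX letters. They lay near N4BP3, RHOB, a small GTPase of the actin cytoskeleton, and CD44, the hyaluronan receptor and a marker of mesenchymal breast cancer cells. Sequences run 5′ to 3′ on the strand of the non-coding gene, and capitals mark the letters searched.
LOC124901147 (chr5:178078228-178078520, minus strand): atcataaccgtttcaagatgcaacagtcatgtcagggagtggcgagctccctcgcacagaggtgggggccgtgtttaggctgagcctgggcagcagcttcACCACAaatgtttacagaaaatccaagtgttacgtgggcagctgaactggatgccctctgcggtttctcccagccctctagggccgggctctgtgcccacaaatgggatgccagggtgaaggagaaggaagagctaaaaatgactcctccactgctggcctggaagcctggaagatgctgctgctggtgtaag
LOC105373465 (chr2:20424896-20425153, minus strand): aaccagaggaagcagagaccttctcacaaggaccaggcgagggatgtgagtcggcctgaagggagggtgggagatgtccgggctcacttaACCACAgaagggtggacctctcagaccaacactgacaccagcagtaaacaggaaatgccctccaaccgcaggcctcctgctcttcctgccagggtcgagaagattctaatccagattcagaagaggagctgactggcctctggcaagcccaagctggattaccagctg
LOC105376627 (chr11:35082583-35082872, plus strand): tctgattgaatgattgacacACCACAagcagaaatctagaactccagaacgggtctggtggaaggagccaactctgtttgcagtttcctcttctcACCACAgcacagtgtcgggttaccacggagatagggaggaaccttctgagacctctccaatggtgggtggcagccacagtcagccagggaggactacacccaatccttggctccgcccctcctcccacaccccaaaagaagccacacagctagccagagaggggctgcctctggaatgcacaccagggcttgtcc
The member near N4BP3 had a RUNX2 score of 73.9 and an MTA1 score of 7.67, that near RHOB 46.5 and 10.8, and that near CD44 39.4 and 14.7. The CD44 stretch held the RUNX letters at 2 places.

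The next set shows the 3 members with the highest RUNX2 scores among those with the AP-1 letters. They lay near INSIG1, which holds the sterol sensor in the endoplasmic reticulum, KIF14, a mitotic kinesin, and SVIL, an actin-binding protein of the membrane skeleton.
LOC124901783 (chr7:155205454-155205753, plus strand): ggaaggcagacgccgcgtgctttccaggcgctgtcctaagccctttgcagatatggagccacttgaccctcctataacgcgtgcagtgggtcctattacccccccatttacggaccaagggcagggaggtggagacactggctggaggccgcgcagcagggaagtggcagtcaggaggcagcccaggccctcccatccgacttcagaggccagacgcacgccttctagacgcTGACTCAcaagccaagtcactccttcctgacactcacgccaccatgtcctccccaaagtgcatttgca
LOC124900414 (chr1:200483548-200483756, minus strand): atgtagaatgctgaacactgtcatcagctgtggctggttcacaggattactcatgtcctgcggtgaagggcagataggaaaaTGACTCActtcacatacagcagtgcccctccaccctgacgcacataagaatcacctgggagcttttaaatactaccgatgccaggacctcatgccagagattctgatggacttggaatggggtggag
LOC105376475 (chr10:29784472-29784757, minus strand): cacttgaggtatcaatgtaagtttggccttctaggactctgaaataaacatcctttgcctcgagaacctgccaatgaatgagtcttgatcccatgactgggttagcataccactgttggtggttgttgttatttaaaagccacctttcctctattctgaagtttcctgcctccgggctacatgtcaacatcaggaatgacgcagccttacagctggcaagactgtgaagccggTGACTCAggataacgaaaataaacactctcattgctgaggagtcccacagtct
Their RUNX2 scores were 51.0, 43.4 and 40.1, and the scores of the overlapping MTA1 peaks were 10.5, 11.7 and 29.7 in the same order. The highest RUNX2 scores among the 4 members with both sets of letters were found near PLEKHM3 and near SOCS3, the feedback inhibitor of cytokine signalling.
LOC105373854 (chr2:208064490-208064752, plus strand): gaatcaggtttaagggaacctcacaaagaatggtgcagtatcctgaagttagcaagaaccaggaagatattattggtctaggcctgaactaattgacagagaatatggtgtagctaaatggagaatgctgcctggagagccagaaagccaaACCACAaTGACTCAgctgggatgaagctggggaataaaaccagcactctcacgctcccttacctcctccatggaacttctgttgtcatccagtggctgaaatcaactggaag
LOC105371912 (chr17:78315466-78315759, plus strand): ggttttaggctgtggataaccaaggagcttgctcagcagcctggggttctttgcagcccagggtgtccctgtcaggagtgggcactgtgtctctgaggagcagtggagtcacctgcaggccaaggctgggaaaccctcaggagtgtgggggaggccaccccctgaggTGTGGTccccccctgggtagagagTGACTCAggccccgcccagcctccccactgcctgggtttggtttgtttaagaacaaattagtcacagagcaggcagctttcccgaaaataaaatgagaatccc
The PLEKHM3 member scored 26.4 for RUNX2 and 5.53 for MTA1, and the SOCS3 member 25.3 and 22.5.

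The members were compact and the peaks of the 2 antibodies lay on top of each other. The median width was 289 bp, with a range of 106 to 1278 bp, and the MTA1 peak beneath had a median width of 247 bp. Their centres were a median of 28 bp apart, with quartiles of 13 and 56 bp, and the MTA1 peak covered a median of 81.3% of the member. Overlap was part of the choice, and these values are not particular to the members. For other strong shared peaks the centres were a median of 28 bp apart inside genes, 28 bp beyond 100 kb and 31 bp at gene ends. The median coverage was 80.8%, 78.9% and 91.1% in the same order. The 1831 members overlapped 1823 different MTA1 peaks. RUNX2 scores, which the choice of members had bounded from below, had a median of 19.4, quartiles of 13.6 and 30.9 and a maximum of 97.0. The scores of the MTA1 peaks, for which no minimum was set, had a median of 12.01, quartiles of 7.90 and 19.5 and a range of 3.02 to 69.4. For other strong shared peaks the median MTA1 score was 11.8 inside genes, 10.0 beyond 100 kb and 18.7 at gene ends. In the MTA1 list, 342 members (18.7%) fell in the top decile and 409 (22.3%) below the median. These shares were not computed for other strong peaks.

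Members with a high RUNX2 score tended to lie on stronger MTA1 peaks, but the scores were only loosely tied. Spearman's rho across the 1831 members was 0.32, as a description, since neighbouring members share chromatin and all share the same 2 libraries. The median percentile of the MTA1 peak within its own list was 63.0 (60.3 to 65.6) for RUNX2 scores of 10 to 15 and 83.4 (80.9 to 85.4) for scores of 30 or more. Strong shared peaks at gene ends lay on higher MTA1 peaks in the same classes, with medians of 77.4 (76.3 to 78.7) and 94.5 (93.9 to 95.4). The top decile of the RUNX2 list held 722 members, and 230 were in the top decile of both lists. Both counts depend on the score minimum, and neither was computed for all strong peaks. The upper quartile of the RUNX2 percentile was 94.3 for members. For the other strong shared peaks it was 91.9 at gene ends, 93.8 inside genes, 94.1 at 3 to 10 kb and 93.4 beyond 100 kb.

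**Figure D1:**
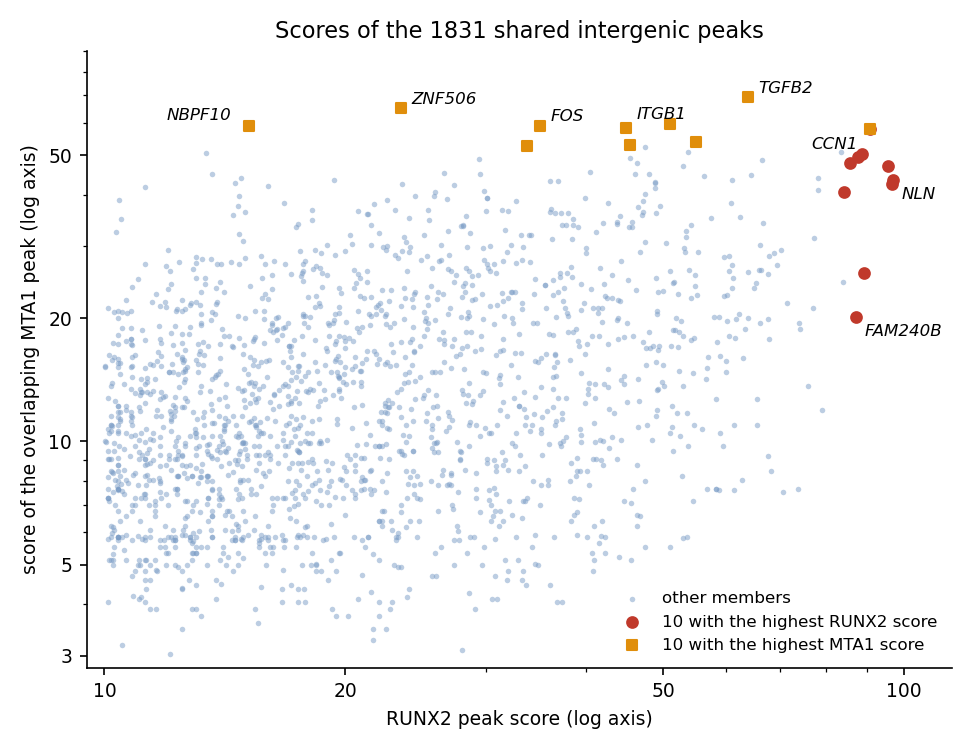
RUNX2 score (x, log axis) against the score of the overlapping MTA1 peak (y, log axis) for the 1831 members, 1 point each, with the 10 highest RUNX2 scores as red circles and the 10 highest MTA1 scores as orange squares (the member near TSPAN2 belongs to both and is drawn as a square). The cloud is wide: at RUNX2 scores of 10 to 20 the MTA1 score reaches from the bottom of its range, 3.02, to 58.9 at the member near NBPF10.

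The 10 members with the highest RUNX2 scores, 84.2 to 97.0, lay 21.7 to 95.6 kb from an end of a protein-coding gene, and 9 of them were also in the top decile of the MTA1 list. The highest was on chromosome 5, from 65861889 to 65862270, 32.8 kb from NLN, which encodes the peptidase neurolysin, with an MTA1 score of 43.4. The next was on chromosome 1, from 24266363 to 24266980, 52.7 kb before the start of GRHL3, a grainyhead factor of epithelial differentiation, with a RUNX2 score of 96.7 and an MTA1 score of 42.6. A member 86.4 kb before the start of CUX1, a homeobox factor, scored 95.7 and 47.1. These 3 were high in both lists. A member 23.4 kb from CCN1, a secreted matrix protein and a classical target of YAP and TEAD, scored 87.6 for RUNX2 and 49.4 for MTA1. The others lay nearest to TSPAN2, SCNN1B, DLG1, FAM240B, RD3 and NDFIP1. The member near FAM240B had the lowest MTA1 score of the set, 20.1.

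The 10 members with the highest MTA1 scores, 52.6 to 69.4, had RUNX2 scores from 15.2 to 90.7, so the RUNX2 values were widely spread. The highest MTA1 score was found on chromosome 1, from 218496654 to 218496953, 52.2 kb beyond TGFB2, a ligand of the TGF-β family that drives epithelial to mesenchymal transition, with a RUNX2 score of 63.8. A member on chromosome 14, from 75258865 to 75259403, lay 19.7 kb before the start of FOS, the immediate early partner of JUN in AP-1, and scored 59.1 for MTA1 and 35.0 for RUNX2. A member 22.5 kb before the start of ITGB1, the common β chain of matrix-binding integrins, scored 58.4 and 45.0. It lay 1834 bp from an end of the lncRNA gene ITGB1-DT. All 3 were in the top decile of both lists. The member near NBPF10, with 58.9 for MTA1 and 15.2 for RUNX2, was the only one of the 10 outside the top decile of the RUNX2 list, and it lay 104 bp from an end of the small nuclear RNA gene RNVU1-6. The others were near ZNF506, SH3TC2, TSPAN2, FGF3, LOC124907776 and DYNC1H1, and TSPAN2 was the one gene on both lists of 10.

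At the score minimum the members were not set apart from the peaks just below it. The lowest members scored 10.02, near LOC124903856, ACSL3 and CEBPB, with MTA1 scores of 15.2, 15.3 and 10.0. The highest shared peaks of the same band below the minimum scored 9.99, 9.95 and 9.95, near MAPKAP1, IPMK and CLIC5, with MTA1 scores of 23.2, 5.85 and 8.76. The member nearest to a protein-coding gene lay 10001 bp from an end of RYR2 and the farthest 99922 bp from one of TMTC3.

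Across locations, strong RUNX2 peaks between genes overlapped MTA1 less often than those at gene ends, and the interval of the difference to those inside genes included 0. Of the 2418 strong peaks in the same band, 75.7% (74.0 to 77.4%) overlapped an MTA1 peak and became members, beside 80.5% of all strong RUNX2 peaks. At gene ends the share was 92.0%, and the difference, band minus gene ends, was -16.3 points (-18.2 to -14.5). Inside genes it was 76.0%, a difference of -0.23 points with an interval from -2.18 to 1.66. Beyond 100 kb it was 69.3%, and the band was 6.46 points higher (3.21 to 9.80). The share depended on the RUNX2 score, as it was 65.0% for scores of 10 to 15 and 92.6% for scores of 30 or more. At gene ends the same classes had 87.7% and 97.5%, so the difference was -22.7 points (-26.1 to -19.4) in the weakest class and -4.98 points (-7.66 to -2.71) in the strongest. Of 6131 RUNX2 peaks of the band under the minimum, 22.5% (21.4 to 23.5%) overlapped an MTA1 peak.

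**Figure D2:**
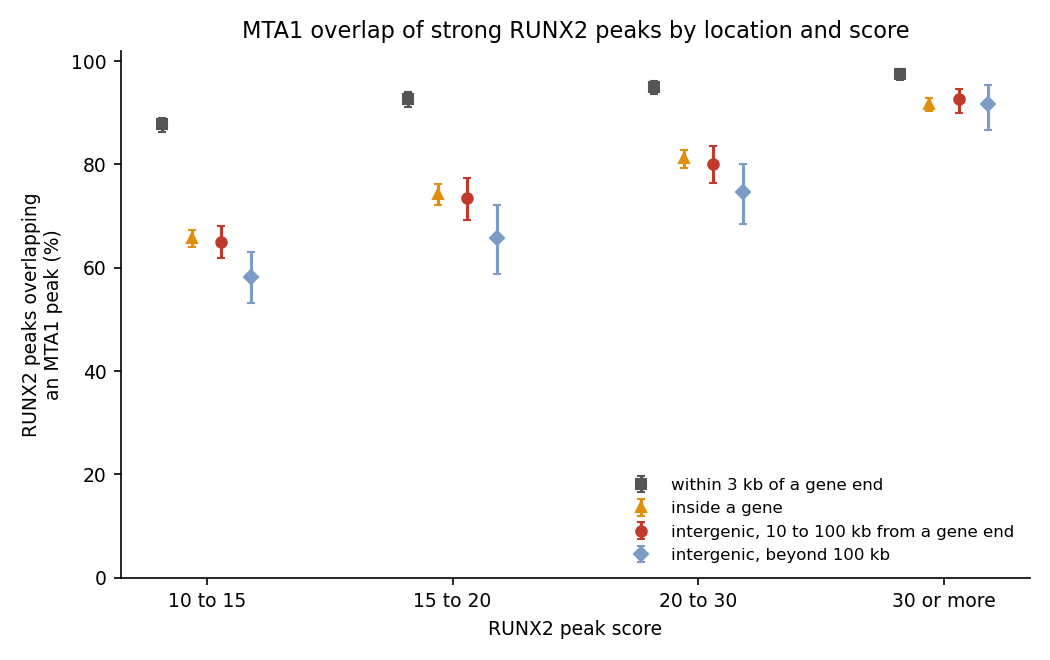
Percentage of strong RUNX2 peaks that overlapped an MTA1 peak (y) by RUNX2 score class (x) in 4 locations, with exact 95% intervals of counting. Peaks at gene ends (squares) stand above the other locations in each class, and the band of the members (circles) runs from 65.0% to 92.6% beside peaks inside genes (triangles).

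The members were denser near genes than far from them. The median distance to the nearest protein-coding gene end was 30.1 kb, with quartiles of 17.8 and 52.0 kb. There were 552 members (30.1%) at 10 to 20 kb, 799 (43.6%) at 20 to 50 kb and 480 (26.2%) at 50 to 100 kb. The band is itself shorter at larger distances, so members were counted per Mb of eligible territory, the 442 Mb of positions outside genes and 10 to 100 kb from a protein-coding gene end. Over all of it there were 4.14 members per Mb (3.96 to 4.34). The density was 5.23 per Mb (4.80 to 5.68) at 10 to 20 kb, 4.11 (3.55 to 4.73) at 40 to 50 kb and 2.73 (2.17 to 3.38) at 70 to 80 kb. RUNX2 peaks of the band under the score minimum thinned out likewise, from 17.6 to 10.6 per Mb over the same distances. The share of strong peaks that overlapped MTA1 was 79.3% (76.1 to 82.3%) at 10 to 20 kb, and it was lower in the 8 bins beyond, without an even order. It was 68.6% (61.5 to 75.1%) at 50 to 60 kb and 65.2% (55.8 to 73.9%) at 80 to 90 kb, both with intervals below that of the first bin. At 70 to 80 kb it was 75.2% (66.0 to 83.0%) and at 90 to 100 kb 74.3% (64.8 to 82.3%), with intervals that overlap that of the first bin.

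**Figure D3:**
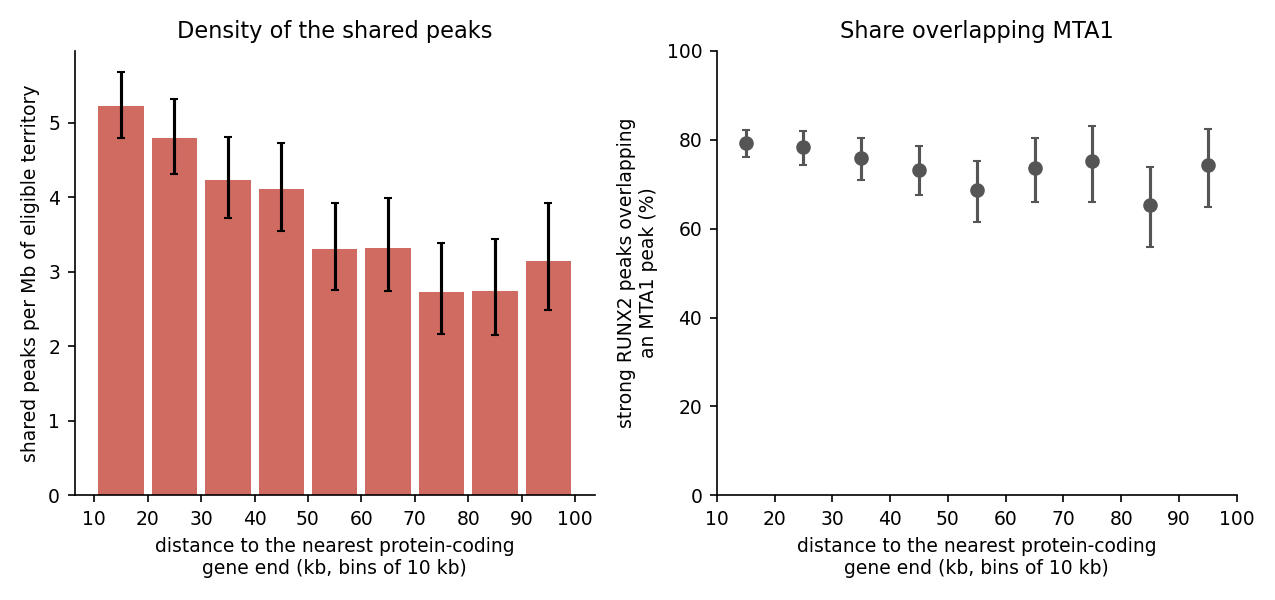
Left, members per Mb of eligible territory in bins of 10 kb of distance to the nearest protein-coding gene end, with exact Poisson 95% intervals; right, the percentage of strong RUNX2 peaks of each bin that overlapped an MTA1 peak, with exact 95% intervals. The density is 5.23 per Mb in the first bin and 3.14 per Mb in the last, and the overlap share ranges from 79.3% in the first bin to 65.2% at 80 to 90 kb.

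The members were found on both sides of their nearest genes. Where the direction of transcription was known, 793 members (55.6%, 53.0 to 58.2%) lay on the start side of the gene and 633 beyond its far end, and 53.9% of the eligible territory with known direction was on the start side. The density was 4.16 per Mb (3.73 to 4.62) between genes transcribed away from each other, 3.96 (3.65 to 4.28) between genes in tandem and 3.80 (3.32 to 4.34) between genes facing each other. These intervals overlap. By chromosome the density ran from 0.93 per Mb (0.64 to 1.31) on X and 2.77 (2.18 to 3.47) on chromosome 4 to 8.58 (6.93 to 10.5) on chromosome 17.

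Intergenic here means outside all annotated genes, but a member could have a non-coding gene close by. The nearest gene of any kind was an lncRNA for 834 members (45.5%), a protein-coding gene for 488, a pseudogene for 386 and a tRNA gene for 25. An end of some gene lay within 3 kb of 341 members (18.6%). Such shares were not computed for the eligible territory or for other peaks, so they describe the members only. Of the 58 members over a promoter window, those of well-known lncRNAs were at MALAT1, an abundant nuclear RNA, with scores of 17.5 for RUNX2 and 15.3 for MTA1, at LUCAT1, a stress-induced RNA near ARRDC3, with 22.5 and 9.84, at CHASERR, which lies before CHD2 and restrains it, with 26.5 and 22.95, and at SNHG5, a host of small nucleolar RNAs, with 14.1 and 23.2. These 4 were picked after their values were seen. The start of MIRLET7A1HG, which hosts let-7 miRNAs, held a member with 31.8 and 32.8.

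A small group of members lay beside tRNA genes, the short genes transcribed by RNA polymerase III. Of the 25 members whose nearest gene was a tRNA gene, 21 lay within 1 kb of it. Their RUNX2 scores were 10.1 to 43.8 with a median of 13.9, below the median of 19.4 for all members, and their MTA1 scores were 5.15 to 32.3 with a median of 16.2, above the median of 12.01. The highest RUNX2 score of this group, 43.8, was 157 bp from TRT-TGT3-1, a gene for a threonine tRNA. Genes of miRNAs, which silence mRNAs through their seed, lay within 10 kb of 21 members and within 3 kb of 10. No share over other peaks was computed for the tRNA or miRNA counts. The member 1264 bp from MIR30A, on chromosome 6, had scores of 12.51 for RUNX2 and 9.21 for MTA1. Of the mature products of MIR30A, hsa-miR-30a-5p is shown with the seed, bases 2 to 8, in capitals, and hsa-miR-30a-3p is left out. MIR30A was chosen as the best known of these miRNAs.
hsa-miR-30a-5p: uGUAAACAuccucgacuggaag
The sequence was taken from RefSeq. The other 9 members within 3 kb were next to 8 further miRNA genes, among them MIR298 beside GNAS, where the RUNX2 score was 40.9 and the MTA1 score 4.84.

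The members had 1323 different protein-coding genes as nearest gene, 6.62% of the 19970 such genes on these chromosomes and 12.1% of the 10904 that border the eligible territory. As flanking genes on either side they had 2249 genes, or 11.3%. Both flanking genes were within 100 kb for 986 members (53.9%). Most genes, 992, were nearest to a single member, 224 to 2 members and 107 to 3 or more.

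The nearest genes carried peaks at their own ends more often than other genes along the same territory. A RUNX2 and an MTA1 peak of any score were present within 3 kb of an end for 58.3% (55.6 to 61.0%) of the 1323 genes, beside 52.1% of all protein-coding genes and 44.1% (43.1 to 45.1%) of the 9581 genes that border the territory and were nearest to no member. The difference to the last group was 14.1 points (11.3 to 16.9). The share was 56.0% (52.9 to 59.2%) for genes with 1 member, 62.1% (55.3 to 68.4%) for those with 2 and 71.0% (61.5 to 79.4%) for those with 3 or more. Neither peak was found at the ends of 23.8% of the nearest genes and 40.4% of the comparison genes. The gene groups were not matched on any other property.

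**Figure D4:**
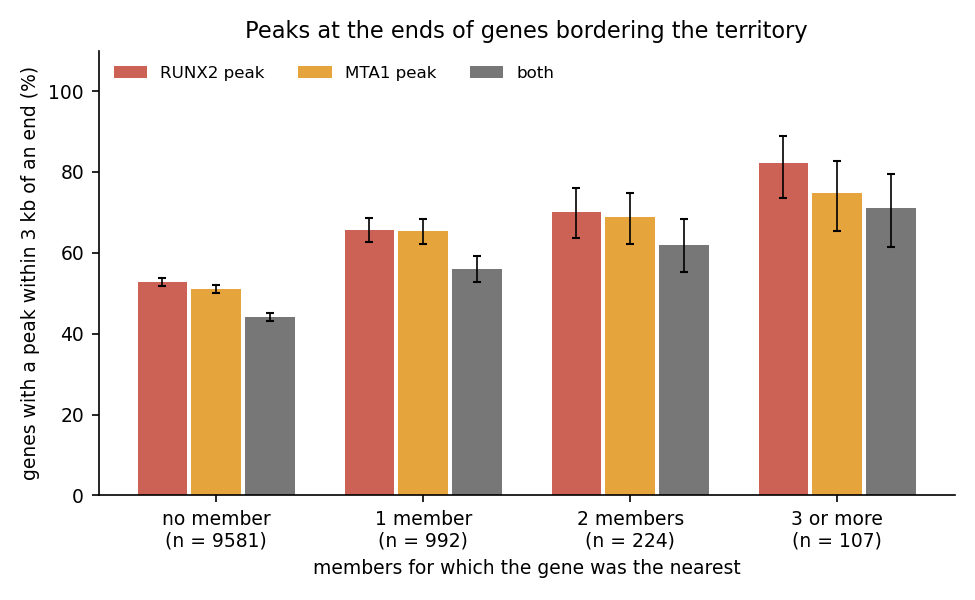
Percentage of genes along the eligible territory with a RUNX2 peak, an MTA1 peak or both within 3 kb of an end (y), by the number of members for which the gene was the nearest (x), with exact 95% intervals. The bars for both peaks are at 44.1% with no member, 56.0% with 1, 62.1% with 2 and 71.0% with 3 or more.

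Of the genes, 16 were nearest to 5 or more members, all named here since the last of the 10 places was tied, and 14 of them had both peaks at an end. NRP1, which encodes neuropilin 1, a co-receptor of VEGF and semaphorins, had 9. They stood on both sides of the gene, 4 towards ITGB1 and 5 towards PARD3, 13.0 to 87.2 kb away, with RUNX2 scores of 10.1 to 27.9 and MTA1 scores of 4.17 to 25.5. None of the 9 was among the 10 highest scores for either antibody. PTPN1, the tyrosine phosphatase PTP1B, had 7, all on the side of its start and facing CEBPB, with RUNX2 scores of 10.3 to 78.2. SMNDC1, a splicing factor, and PRAG1, a pseudokinase, also had 7. DUSP5, a nuclear phosphatase of ERK, and ARRDC3, an arrestin-like adaptor in receptor trafficking, had 6 each. The genes with 5 were ARHGAP12, BHLHE40, CDC42EP3, COL5A1, DUSP1, NDFIP1, SMURF2, SPRY1, TOMM20 and ZSWIM6. Some had a single dominant member: the RUNX2 scores were 74.2 for the highest and at most 15.6 for the other 4 near CDC42EP3, a CDC42 effector, and 84.2 for the highest and 38.4 for the next near NDFIP1, an adaptor of NEDD4 ubiquitin ligases. Near SMURF2, a ubiquitin ligase of TGF-β signalling, 3 of the 5 scored over 45, with 47.2, 49.0 and 45.6.

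Members were often close to another member. With a limit of 12500 bp between neighbouring centres, 541 members (29.5%, 27.5 to 31.7%) formed 235 clusters, of which 184 held 2 members, 36 held 3, 11 held 4, 3 held 5 and 1 held 6. At the same limit, 31.3% of strong shared peaks inside genes, 24.6% of those at gene ends and 20.4% of those beyond 100 kb had a neighbour of their own kind. The groups differ in number and territory, so these shares are given side by side only. Members in clusters had a median MTA1 percentile of 76.2 (74.1 to 79.2), beside 69.8 (67.5 to 71.9) for members alone, and median RUNX2 scores of 20.5 (19.4 to 21.5) and 18.6 (17.8 to 19.7). Counting peaks of any location, 785 members (42.9%) had another strong RUNX2 peak within 12500 bp and 1078 (58.9%) an MTA1 peak other than their own. These last shares were not computed for other peaks, so they are not read as a trait of the members.

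The 6-member cluster lay on chromosome 10 between SMNDC1 and DUSP5, from 110398662 to 110426363. From the SMNDC1 side, the RUNX2 scores were 22.6, 24.02, 36.6, 28.0, 39.5 and 16.8. The MTA1 scores in the same order were 29.99, 35.2, 36.1, 22.6, 21.0 and 7.29. The MTA1 scores were thus highest in the first 3 members and lowest in the last, while the RUNX2 scores peaked at the fifth. The whole interval between the genes, 193 kb long, held 11 members, the highest number in any of the 1193 intervals with a member. The interval from CEBPB to PTPN1 held 8, and those from DLG1 to BDH1 and from NDFIP1 to SPRY4 held 7 each.

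The 5-member clusters differed in spacing and in how the scores of each antibody ran along them. On chromosome 5, from 61301611 to 61314287, the members before the start of ZSWIM6 spread over 12.3 kb, with RUNX2 scores of 50.1, 15.8, 18.7, 27.4 and 21.8. Their MTA1 scores were 15.4, 25.1, 23.8, 17.8 and 20.5, so the highest RUNX2 score had the lowest MTA1 score. On chromosome 2, from 84919761 to 84958576, the space between TMSB10, which encodes the actin-sequestering thymosin β10, and KCMF1, a ubiquitin ligase, had members with RUNX2 scores of 21.5, 46.1, 33.5, 19.5 and 36.2. The MTA1 scores there were 30.2, 45.0, 13.2, 17.3 and 43.2, highest at the members with 46.1 and 36.2 for RUNX2. On chromosome 10, from 31739623 to 31769260, the members beyond the far end of ARHGAP12, a GTPase activator for RAC, scored 37.4, 17.1, 17.5, 21.6 and 20.9 for RUNX2. With 11.3, 17.1, 9.43, 33.9 and 9.12 the MTA1 scores did not follow them. The 11 clusters of 4 lay near CCN1, SOST, PRSS23 and ME3, PTPN1, MICAL2, HPCAL1, FRMD4A, DUSP10, PDGFB and RPL3, BHLHE40, and DUSP1 and ERGIC1. Not all their members were separate sites of MTA1. In the MICAL2 cluster, neighbouring members shared the MTA1 peak from 12086248 to 12086852. In that near PDGFB and RPL3, neighbours shared the MTA1 peak from 39282949 to 39283873. SOST encodes sclerostin, the osteocyte inhibitor of bone formation, and its members scored 28.6, 56.3, 32.0 and 11.3 for RUNX2 at 39.0, 29.6, 20.6 and 12.9 kb from the gene. It and the other clusters of 4 are named for their size.

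**Figure D5:**
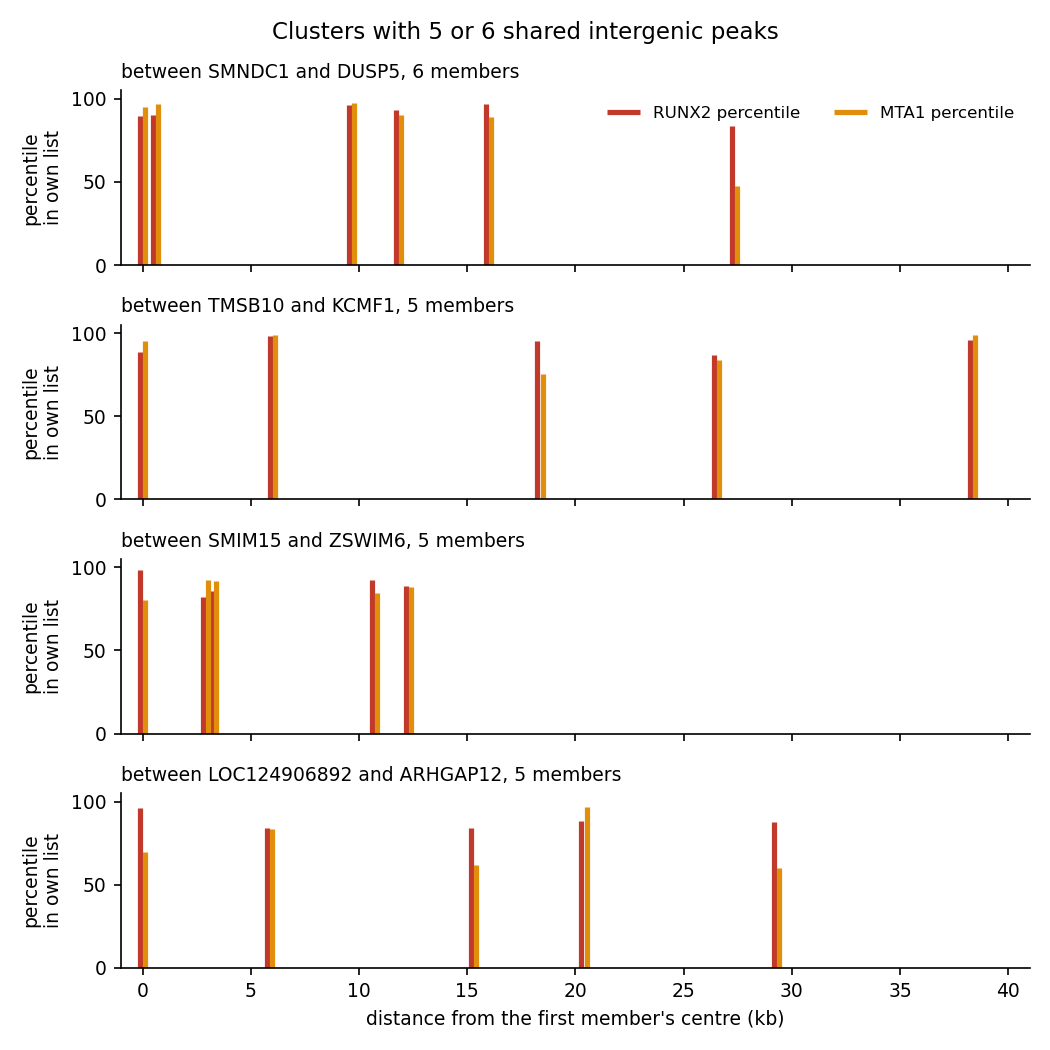
Percentile of the RUNX2 score in the RUNX2 list (red) and of the MTA1 score in the MTA1 list (orange) (y) for each member of the 4 clusters with 5 or 6 members, against the distance from the first member's centre in kb (x). The 6 members between SMNDC1 and DUSP5 spread over 27.4 kb and the 5 before ZSWIM6 over 12.3 kb, and the lowest MTA1 percentile drawn, 47.5, belongs to the last member of the first cluster.

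Lists of genes with known roles were then looked up among the nearest genes. The lists were chosen with earlier results of these data known, so the shares below describe the lists and are no test of enrichment. Of 257 genes in 15 lists, 61 (23.7%) were nearest to a member, with 112 members between them. Beside this stood 6.62% of all protein-coding genes and 12.1% of those that border the territory. The 257 include genes that do not border the territory, so the 23.7% and the 12.1% are not over like sets of genes. Both peaks stood at an end of 48 of the 61 (78.7%), beside 58.3% of all nearest genes and 52.1% of all protein-coding genes. The MAPK feedback list, phosphatases and adaptors that are induced by ERK signalling and shut it off, had 6 of 12 genes, 11 of which border the territory. It held 23 members, or 22.9 per Mb (14.5 to 34.3) of its own territory, beside 4.14 over all. There were 6 members near DUSP5, 5 near DUSP1, which inactivates several MAP kinases, 5 near SPRY1 and 2 near SPRY4, the Sprouty inhibitors of receptor tyrosine kinases, 4 near DUSP10 and 1 near SPRED1. The RUNX2 scores of the 23 ran from 10.4 to 61.3 with a median of 31.2, and the MTA1 scores from 5.03 to 44.1 with a median of 13.8. The highest RUNX2 score belonged to the member 41.2 kb beyond SPRED1, whose MTA1 score was 7.63. The 5 members of SPRY1 all lay beyond its far end and had MTA1 scores of at most 12.01. At DUSP10 the 4 members stood 67.1 to 82.1 kb before the start, with RUNX2 scores of 31.2, 29.6, 23.6 and 38.5.

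Counts of this kind were not particular to signalling genes. The interval of the density lay above 4.14 per Mb for 7 of the 15 lists and included it for the other 8, and housekeeping genes were among the 7, with 4 of 20 genes, 8 members and 19.2 per Mb (8.28 to 37.8). Among them ACTB, the cytoplasmic actin, had members 18.9 and 25.5 kb away with RUNX2 scores of 15.2 and 11.1, and YWHAZ, a 14-3-3 adaptor, had 4, the highest at 47.5. The other lists of the 7 were AP-1 factors (3 of 13 genes, 4 members), YAP and TEAD targets and partners (3 of 16, 6), growth factors and receptors (8 of 17, 14), adhesion (4 of 19, 7) and growth and stress regulators (11 of 26, 18). The territory of most lists is small, and the intervals are wide. They also count neighbouring members as independent, although the members of a list stood near few genes, as with the 4 near CCN1. Which lists lay above 4.14 per Mb is therefore a description, not a test.

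Growth factors and their receptors had 8 genes with members. EGFR, the receptor of EGF, had 3, at 33.4, 51.4 and 85.6 kb before its start, with RUNX2 scores of 10.6, 19.7 and 20.6 and MTA1 scores of 10.5, 14.4 and 7.26. The one at 85.6 kb lay 24 bp from an end of the pseudogene LOC643168. The EGFR ligands AREG and TGFA had 1 and 2, with RUNX2 scores of 30.5 for AREG and of 12.3 and 61.3 for TGFA. The ephrin receptor EPHA2 had 1 member, 17.4 kb before its start, with scores of 60.8 and 38.3. The ligands PDGFB, PDGFC and VEGFC had 3, 1 and 1, and the VEGF receptor KDR had 2. Ligands and receptors were thus both among the nearest genes, and the highest RUNX2 scores were at TGFA and EPHA2.

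Among adhesion genes, ITGB6, the integrin chain that activates latent TGF-β, had 3 members before its start with RUNX2 scores of 35.7, 43.1 and 13.5, and neither peak at its own ends. ITGA3, the α chain of a laminin receptor, had 2, one of which was the widest of all members at 1278 bp. ITGB1 and CD44 had 1 each, described above. The matrix proteases had 2 of 15 genes: PLAU, the urokinase, with RUNX2 scores of 30.7 and 36.0, and MMP9, a gelatinase, with 25.7.

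The list of epithelial to mesenchymal transition and TGF-β signalling had 5 of 21 genes and 10 members, at 8.40 per Mb (4.03 to 15.5). TGFB2 had 4, all beyond its far end at 15.5, 35.7, 44.6 and 52.2 kb, with RUNX2 scores of 16.8, 13.6, 18.6 and 63.8 and MTA1 scores of 13.8, 27.9, 8.06 and 69.4. The most distant was highest in both. The inhibitory SMADs, SMAD6 and SMAD7, had 1 and 2, with RUNX2 scores of 32.6 for SMAD6 and of 43.9 and 10.2 for SMAD7. The repressors SNAI1 and TWIST2 had 2 and 1, and the scores were 38.7 and 16.3 near SNAI1 and 11.4 near TWIST2. Of the AP-1 genes, FOS had a second member 11962 bp beyond its far end, over the promoter window of the lncRNA gene LINC01220. That member scored 16.8 for RUNX2 and 38.3 for MTA1. JUND and BATF3 had 1 each with RUNX2 scores of 13.4 and 15.4. In the YAP and TEAD list CCN1 had 4, with RUNX2 scores of 29.6, 87.6, 51.1 and 17.9, and YAP1 and ANKRD1 had 1 each.

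The bone programme, the classical territory of RUNX2, had 4 of 16 genes and 6 members, at 6.89 per Mb (2.53 to 15.0). COL1A1, the main collagen of bone, had 2 members next to each other at 17.4 and 17.9 kb, with RUNX2 scores of 49.4 and 23.3 and MTA1 scores of 17.1 and 4.95. TNFSF11, which encodes RANKL, the signal that forms osteoclasts, had 2 before its start with RUNX2 scores of 11.6 and 27.8, and its decoy receptor TNFRSF11B had 1 with 34.5. BMP4, a bone morphogenetic protein, had 1 with 22.04. The MTA1 scores of the 4 members near TNFSF11, TNFRSF11B and BMP4 were at most 6.39, below the median of the MTA1 list. At COL1A1 the stronger of the pair lay above that median.

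Cytokines had 4 of 20 genes, at 10.8 members per Mb (3.96 to 23.5) beside 4.14 over all. CSF2, which encodes GM-CSF, had 3 members of RUNX2 scores 19.4, 37.2 and 14.1, and LIF, IL1A and IL4R had 1 each. The NF-κB list had 3 of 14 genes, at 8.53 per Mb (1.76 to 24.9): NFKBIA, its inhibitor, NFKBIZ and TNFAIP2 with 1 each. Among growth and stress regulators, the circadian repressor BHLHE40 had 5 members, of which 4 formed a cluster of 5.12 kb. ID1, an inhibitor of helix-loop-helix factors, had 1 with a RUNX2 score of 60.5, while CDKN1A, the cell cycle inhibitor p21, and CCND1, cyclin D1, had 1 each with 13.0 and 11.4. Luminal identity had KRT8 and GRHL2 (2 of 17 genes), at 3.65 per Mb (0.44 to 13.2), where the RUNX2 scores were 28.5 and 10.9.

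For the genes of the factors themselves, 1 of 21 in the list of RUNX and NuRD genes (4.76%) was nearest to a member, beside 6.62% of all protein-coding genes, and the density was 2.09 per Mb (0.053 to 11.6). That was RUNX1, the blood paralogue of RUNX2, with a member 89.6 kb before its start that scored 19.7 for RUNX2 and 5.33 for MTA1. Of 11 genes that the study names as targets of the complex, 1 (9.09%) was nearest to a member, beside 6.62% of all protein-coding genes. Only 7 of the 11 border the territory, so 1 of 7 is the count to set beside the 12.1% of all bordering genes. With 1 gene, neither share stands apart from its background. The density was 3.35 per Mb (0.085 to 18.6). That gene was FBXW7, which encodes the substrate-binding part of a ubiquitin ligase for oncoproteins such as MYC and cyclin E. The member lay 55.2 kb beyond its far end with scores of 10.2 and 10.95, close to the score minimum. The study measured binding at the promoters of its target genes. Such sites lie too close to a gene end to be members, so the count does not bear on them. The study examined these genes in the same cells and presents the promoter measurements as a verification of its genome-wide peaks. The count is therefore not taken as independent evidence.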

How the data were processed

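CUT&Tag libraries of MDA-MB-231 cells, 1 with an antibody to RUNX2 and 1 with an antibody to MTA1, were represented by the peak lists that the authors deposited. Each list gives chromosome, start, end, name and a score per peak, and the authors called peaks in each library separately. The scale of the deposited score was not stated, so scores were compared within a list, and only percentiles between the lists. The submitters' processing notes name CASAVA 1.4, Bowtie 0.12.8, MACS, MACS2 and hg19, with no roles, and no threshold or control. Depth is unknown.

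Genes were taken from RefSeq GRCh38.p14 (59094 genes, 19970 of them protein-coding). The direction of transcription came from the RefSeq promoter windows, which held 15811 of the protein-coding genes and none of chromosome 8. Positions are 1-based. The centre of a peak decided its location. Shares carry exact (Clopper-Pearson) intervals, densities exact Poisson intervals, differences of shares Newcombe intervals and medians order-statistic intervals, all at 95%.

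Named members were the 10 of highest RUNX2 score, the 10 of highest MTA1 score, those of the largest clusters (4, since places were tied) and the 3 on each side of the score minimum. Named genes were those nearest to them, those nearest to most members and genes of 15 lists, and a gene chosen otherwise is said to be so. The members, lists and comparisons were chosen with earlier results of these data known. Certain genes are not reported here. A search for motifs in the peaks needs a genome sequence and was not run; promoter windows were used instead. The overlap, location and territory steps were tested on simulated data. Alternatives concerned the overlap, the scores, merging, the gene classes, the distance band and the narrowest peaks. Computations ran in scipy 1.17.1, pandas 2.3.3 and numpy 2.4.6 under Python 3.11.15, and plots in matplotlib 3.10.9.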

Additional observations from a re-analysis of the deposited data

How the results depend on the processing

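The 10 summary values were recomputed under 9 alternatives. The number of members (1225 to 2585) and of their nearest genes (935 to 1741) stayed within 1.5 times the reported counts, and the difference in overlap to gene ends and that between nearest and other bordering genes kept their signs throughout. Values that left the reported intervals follow.

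With an overlap of 50% of both peaks, the overlap share was 63.5%, the median MTA1 score 12.9 and the density 3.47 per Mb. With MTA1 peaks at or above their median score these were 58.8%, 14.8 and 3.22, the share of nearest genes with both peaks was 45.2%, the difference to gene ends -23.8 points and that between gene groups 10.99 points. A RUNX2 score of 8 or more gave 69.8%, 11.2, 4.98 per Mb and -18.99 points to gene ends. A score of 15 or more gave 82.4%, 13.8, 2.77 per Mb, -12.4 points and 26.1% of members with a neighbour. Merging of RUNX2 peaks within 500 bp gave 26.5% with a neighbour. With centres outside protein-coding genes only, 33.5% had a neighbour, the median distance was 32.2 kb and the density 4.34. The band of 20 to 100 kb gave 41.3 kb and 3.80 per Mb. Without peaks of the narrowest width the overlap share was 70.1%, the median MTA1 score 12.8, the share of nearest genes with both peaks 52.3%, the density 3.84 and the difference to gene ends -19.5 points. Joining members within 5 or 50 kb put 14.5% or 48.2% in clusters. A window of 1 kb at gene ends gave 48.9% and 11.2 points. These shifts follow from which peaks, genes or positions each alternative counts, and no cause beyond that was tested. Centres within 200 bp moved no value beyond its interval.

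Leaving out members within 3 kb of any gene end, chosen after seeing the data, left 1490 members, 28.7% with a neighbour. The comparisons of the 2 differences under each alternative were likewise added after seeing the data. With 1 library per antibody and unknown depth, a missing peak can be a weak signal. No paired analysis was possible because each group has 1 sample.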
